A study of Mus musculus with 4 samples.

Results

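The mitochondrial genome encodes 6 subunits of respiratory complexes III, IV and V, and the mRNAs of these subunits were followed here in brown adipose tissue (BAT), the heat-producing fat of mice. They are mt-Cytb of complex III, mt-Co1, mt-Co2 and mt-Co3 of complex IV, and mt-Atp6 and mt-Atp8 of complex V. The members were taken by symbol from a table of 17259 genes, and all 6 were found there among 37 mitochondrially encoded genes, of which 13 are mRNAs. The study sequenced total RNA of wild-type (WT) mouse BAT in 2 groups of 2 libraries. BAT-Mito was made from isolated mitochondria. Per the methods, fragmentation time was adjusted for mitochondrial samples, and mitochondria isolated from hearts were treated with digitonin and RNase A before RNA isolation. Such differences in preparation cannot be told apart from the difference between the groups. BAT-total carries the word total in its titles, whereas its treatment label names tissue from which mitochondria were taken away and the text of the study speaks of total lysates. Whether BAT-total holds the whole tissue or what the isolation left therefore cannot be told apart. Nothing says that the libraries of a group came from different animals, so p-values measure the spread between these libraries, which may be technical.

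Cytochrome b is the core subunit of complex III, which passes electrons from ubiquinol to cytochrome c. Cytochrome oxidase subunits 1 to 3, made from mt-Co1, mt-Co2 and mt-Co3, form the catalytic core of complex IV, which hands these electrons to oxygen. ATP synthase subunits a and 8, made from mt-Atp6 and mt-Atp8, belong to the membrane part of complex V, through which protons flow back into the matrix. Mitochondrial mRNAs are cut out of long transcripts of the genome, largely at the tRNAs between them. In brown fat Ucp1 lets protons return without making ATP, and brown fat mitochondria are known for a strong respiratory chain beside little ATP synthase.

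Positions are given in the mouse build GRCm38, on the plus strand of the mitochondrial chromosome. In genome order the genes are mt-Co1 (ENSMUSG00000064351) at chrM:5328-6872, mt-Co2 (ENSMUSG00000064354) at chrM:7013-7696, mt-Atp8 (ENSMUSG00000064356) at chrM:7766-7969, mt-Atp6 (ENSMUSG00000064357) at chrM:7927-8607, mt-Co3 (ENSMUSG00000064358) at chrM:8607-9390 and mt-Cytb (ENSMUSG00000064370) at chrM:14145-15288. Each gene is annotated as 1 exon. Their lengths are 1545, 684, 204, 681, 784 and 1144 bases in that order. mt-Atp8 and mt-Atp6 overlap by 43 bases, and mt-Atp6 and mt-Co3 share 1 base. The stretches below show both junctions with the shared bases in capitals (chrM:7907-7989 and chrM:8587-8627, 5′ to 3′), because a read across them belongs to more than 1 gene.
mt-Atp8/mt-Atp6 overlap: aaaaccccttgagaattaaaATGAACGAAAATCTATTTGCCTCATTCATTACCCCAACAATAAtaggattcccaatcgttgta
mt-Atp6/mt-Co3 junction: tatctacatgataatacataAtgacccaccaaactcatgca
All 6 genes begin with ATG. The genes mt-Co1, mt-Co2, mt-Atp8 and mt-Atp6 end with TAA, whereas mt-Co3 and mt-Cytb end with a lone T, shown in capitals at chrM:9367-9390 and chrM:15265-15288. Such an incomplete stop codon is completed by the poly(A) tail of the mature mRNA.
mt-Co3 end: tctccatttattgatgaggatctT
mt-Cytb end: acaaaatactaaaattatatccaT

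Copies of mitochondrial DNA also lie in the nuclear genome, and 4 of the 6 mRNAs share sequence with annotated copies. Every 75-base window of the members, 75 bases being the read length, was searched for in the other annotated mouse transcripts. No window of mt-Cytb (of 1070) or mt-Atp8 (of 130) was shared. In contrast, 99.5% of the windows of mt-Co2, 99.5% of mt-Atp6 and 99.9% of mt-Co3 occurred in a pseudogene on chromosome 1. These pseudogenes are Gm28661 for mt-Co2 (chr1:24614885-24615565, minus strand), Gm10925 for mt-Atp6 (chr1:24613974-24614651, minus strand) and Gm28437 for mt-Co3 (chr1:24613189-24613971, minus strand). They match their mitochondrial gene over 681, 678 and 783 bases with 0 differences, and hold 0 windows of their own. For mt-Co1 39.8% of the windows were shared, with Gm29216 on chromosome 1 and with Gm13340 on chromosome 2. Gm13340 differs from mt-Co1 at 37 of 1545 bases, and the 60-base stretch with the most differences, 4, is shown with these in capitals (mt-Co1 at chrM:5787-5846, Gm13340 at chr2:22589129-22589188 on the minus strand).
mt-Co1 stretch: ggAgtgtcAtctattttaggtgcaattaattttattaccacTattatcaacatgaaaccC
Gm13340 stretch: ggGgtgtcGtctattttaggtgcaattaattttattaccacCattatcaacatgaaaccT

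The identical chromosome 1 copies of mt-Co2, mt-Atp6 and mt-Co3 carried values close to those of the members they match. The methods of the study state that reads of several positions were left out, which would leave mt-Co2, mt-Atp6 and mt-Co3 with few reads and their copies on chromosome 1 with none. Instead Gm28437 stood at 1.01 and 1.00 times mt-Co3 in BAT-Mito replicates 1 and 2, and at 1.00 and 0.997 times in BAT-total. Gm28661 stood at 1.04 and 1.03 times mt-Co2 in BAT-Mito, and at 1.03 and 1.03 times in BAT-total. The ratio of Gm10925 to mt-Atp6 was 1.17 and 1.16 in BAT-Mito and 1.12 and 1.13 in BAT-total. For Gm29216 and Gm13340, copies of mt-Co1, and Gm13341, a copy of mt-Co2, the ratio lay between 0.103 and 0.277 over all libraries. Reads of a member and of an identical copy cannot be told apart. Values are therefore given as deposited and, where it matters, with the copies added to their gene. Whether such a read was counted at 1 place or at each was not tested. If at each, the deposited value already holds all its reads, and the sum counts them more than once. With copies added mt-Co2 became 2.21 to 2.23 times, mt-Atp6 2.12 to 2.17 times, mt-Co3 1.997 to 2.01 times and mt-Co1 1.36 to 1.38 times its deposited value. mt-Cytb and mt-Atp8 kept theirs. The sums for mt-Co1 and mt-Co2 also hold Gm13340 and Gm13341. Of their windows, 1251 of 1471 and 460 of 598 do not occur in the mitochondrial gene, so reads there could be told apart from it.

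**Figure D1:**
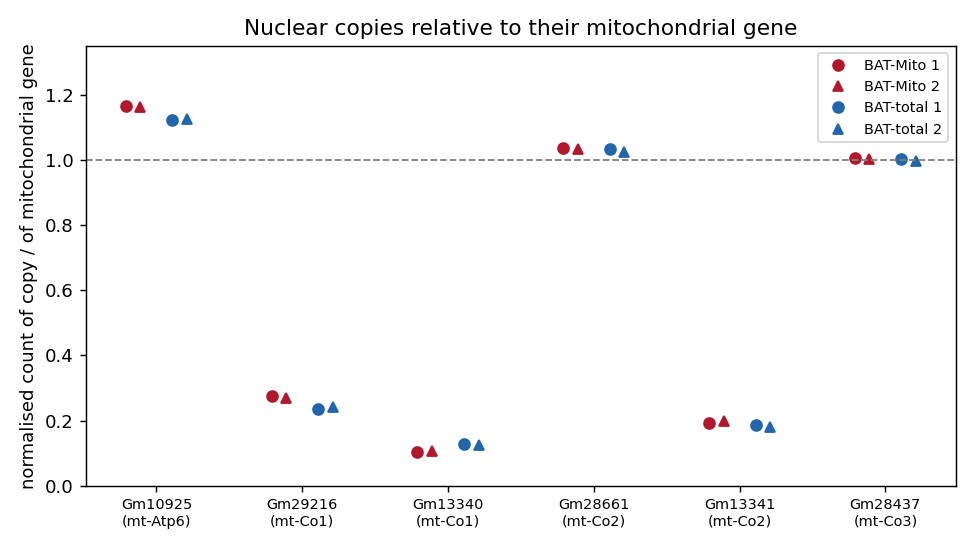
Normalised count of each nuclear copy divided by that of its mitochondrial gene (vertical axis, linear), for 6 copies and 4 libraries. Red marks BAT-Mito and blue BAT-total, circles replicate 1 and triangles replicate 2, and the dashed line marks equal values. Gm10925, Gm28661 and Gm28437 lie near 1 in all 4 libraries, and the other 3 copies lie between 0.103 and 0.277.

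The values are normalised counts, that is, gene counts divided by a size factor per library. The step between neighbouring BAT-Mito values, which stands for 1 read, was 8.32 units in the first library and 6.90 in the second, so that whole reads were recovered, 26288871 and 24910434 in all. The members took 2202940 and 1939673 of them. These are sums of gene counts, so a read counted at more than 1 gene would enter more than once. In BAT-total the reads behind a unit are unknown, and normalised totals were 1590096 and 1905303 against 218773335 and 171918657 in BAT-Mito. All 10 brown adipocyte markers, Ucp1 included, were above 0 in each library, and summed to 2846 and 7971 in BAT-Mito and 13583 and 12120 in BAT-total. Liver markers (6 of 6 listed) summed to 9678 and 684 in BAT-Mito and to 162 and 5 in BAT-total, where 3 of 6 were at 0 in replicate 2. Skeletal muscle and heart markers (7 of 9 listed) summed to 3121 and 1552 against 268 and 559, with 1 at 0 in each BAT-total library. Macrophage markers (4 of 4 listed) summed to 183 and 137 against 52 and 58, with 1 at 0 in BAT-Mito replicate 2. Endothelial markers (4 of 4 listed) lay the other way, at 84 and 7 against 804 and 863, with 1 and 3 of them at 0 in BAT-Mito. Blood markers (5 of 5 listed) summed to 250 and 635 against 296 and 624, with overlapping groups. The part of these cells and tissues in the values below was not tested.

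All 6 mRNAs were higher in BAT-Mito than in BAT-total on the deposited scale. Cytochrome b mRNA, mt-Cytb, had normalised counts of 5779080 and 4339386 in BAT-Mito and of 22964 and 32085 in BAT-total. The groups lay far apart, and within them replicate 1 was the higher library of BAT-Mito and the lower library of BAT-total. The log2 fold change was 7.53 (SE 0.47, n = 2 each), which is 184-fold on the scale of log2 of the normalised count plus 1, and limma gave an adjusted p of 0.0249.

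The complex IV mRNAs showed the same order of libraries. mt-Co1 stood at 7055860 and 4880009 in BAT-Mito and at 28781 and 37725 in BAT-total. mt-Co2 stood at 1344021 and 1047824 against 5036 and 6609, and mt-Co3 at 1024277 and 766280 against 5773 and 7114. No library of one group came near the other group for any of them. The log2 fold changes with limma were 7.48 for mt-Co1 (SE 0.48), 7.68 for mt-Co2 (SE 0.45) and 7.11 for mt-Co3 (SE 0.45), so that mt-Co3 had the smallest of the 6 fold changes, 138-fold.

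Of the complex V mRNAs, mt-Atp6 stood at 2821550 and 2124033 in BAT-Mito and at 10895 and 12284 in BAT-total. mt-Atp8 stood at 307869 and 228990 against 1089 and 1470. Both groups were again separate. The log2 fold changes were 7.73 (SE 0.44) for mt-Atp6 and 7.71 (SE 0.47) for mt-Atp8, the largest of the 6, at 212-fold and 210-fold.

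**Figure D2:**
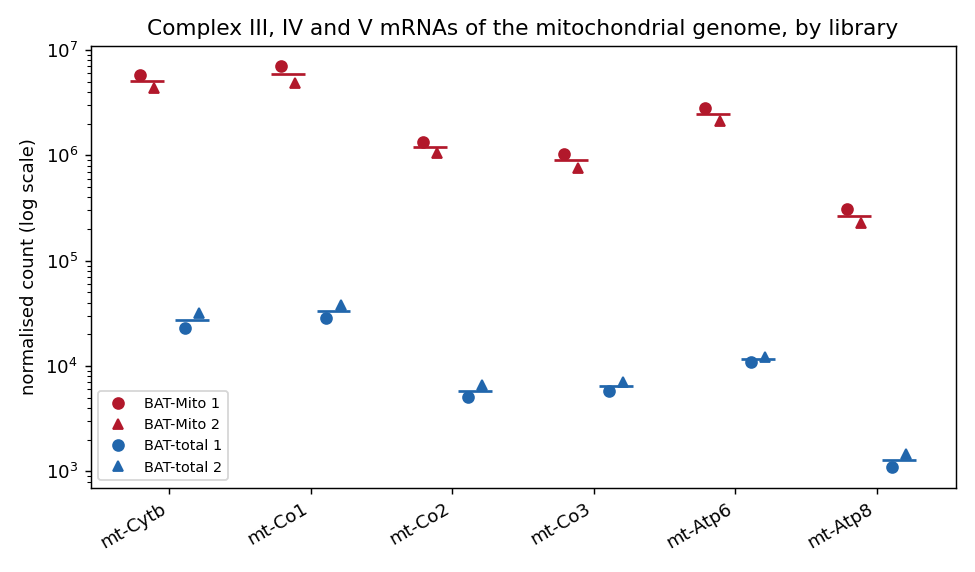
Normalised counts of the 6 mRNAs (vertical axis, log scale) in 4 libraries. Red marks BAT-Mito and blue BAT-total, circles replicate 1 and triangles replicate 2, and lines the group means. Every BAT-Mito value lies above every BAT-total value of the same gene.

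With limma 6 of 6 members were called higher, each at an adjusted p of 0.0249, against 0.803% of the 8215 genes tested called higher and 4.41% called lower. The median log2 fold change was 7.61 over the members and -1.23 over all tested genes. The calls ended without BAT-total replicate 1 (adjusted p of 0.798 with limma for each member) and without BAT-total replicate 2 (0.912), with log2 fold changes between 6.96 and 7.93. In these fits 1 library stands for BAT-total, and the spread comes from the BAT-Mito pair, which the lone library is assumed to share. The size of the fold change rests on the scaling. When each library was scaled to the same total, the log2 fold changes were 0.73 for mt-Cytb, 0.68 for mt-Co1, 0.88 for mt-Co2, 0.31 for mt-Co3, 0.93 for mt-Atp6 and 0.91 for mt-Atp8, beside a median of -6.51 over all genes. On that scale limma called mt-Co2 (adjusted p of 0.0489), mt-Atp6 (0.0426) and mt-Atp8 (0.0463), against 0.124% of genes called higher and 97.9% called lower.

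**Figure D3:**
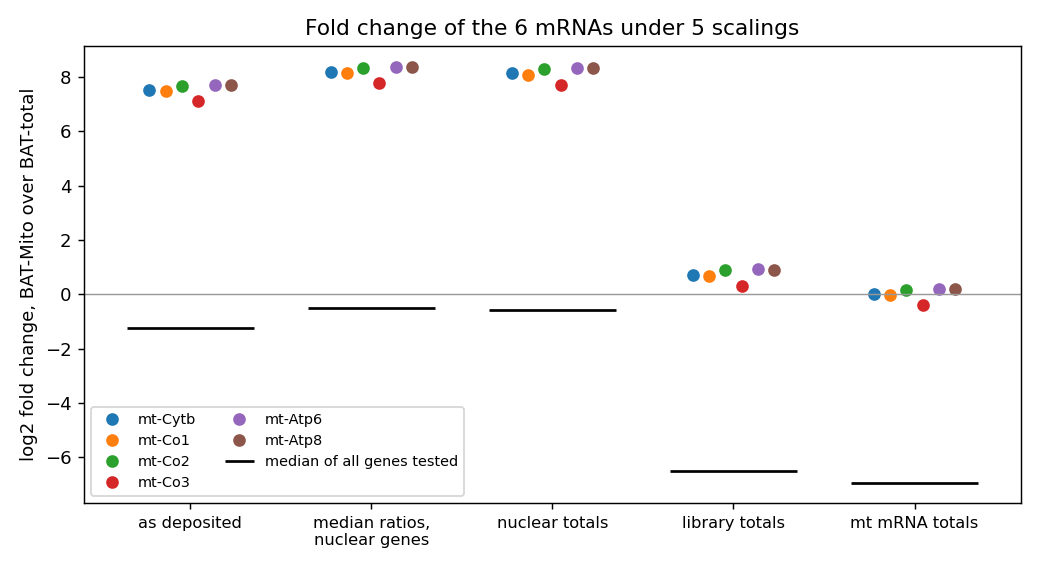
Log2 fold change of BAT-Mito over BAT-total (vertical axis) for the 6 mRNAs under 5 scalings of the libraries, with the median of all tested genes as a black line. The members lie above the median of all genes in each, while their position relative to 0 moves from above 7 as deposited to between -0.41 and 0.21 when scaled to the total of the 13 mitochondrial mRNAs.

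Together the 6 mRNAs took 8.38% and 7.79% of the library in BAT-Mito and 4.69% and 5.11% in BAT-total. BAT-Mito averaged 8.08% ± 0.419 and BAT-total 4.90% ± 0.296 (SD, n = 2 each), 3.19 percentage points apart, and no library of one group reached the other. An exact two-sided permutation test gave p = 0.333, the smallest value 4 libraries allow. The share depended on the denominator, since the 2 mitochondrial rRNAs filled much of every library. With both rRNA genes left out of the totals, the members took 44.8% ± 0.882 of BAT-Mito and 9.30% ± 1.47 of BAT-total (SD, n = 2 each).

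Within mitochondrial mRNA the joint share of the 6 members, as deposited, overlapped between the groups. It was 61.8% and 59.96% in BAT-Mito and 61.3% and 59.97% in BAT-total, so that replicate 1 was the higher library in both. The means were 60.9% ± 1.29 and 60.6% ± 0.948 (SD, n = 2 each), 0.229 percentage points apart, and an exact permutation test gave p = 1.0. This difference turned to -0.685 without BAT-Mito replicate 1 and to -0.442 without BAT-total replicate 2, and was 1.14 without BAT-Mito replicate 2. Per length the groups did not overlap, at 63.3% ± 0.798 in BAT-Mito and 61.7% ± 0.605 in BAT-total (SD, n = 2 each, exact permutation p = 0.333). With nuclear copies added they overlapped, and BAT-Mito was 0.777 percentage points higher. The other part is the 7 complex I mRNAs. In contrast to the joint share as deposited, 4 of the 6 members had shares whose groups did not overlap, beside 76.9% of all 13 mitochondrial mRNAs. Of all 8215 tested genes, set against the same sum, 97.7% did not overlap and 97.4% were lower in BAT-Mito.

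Cytochrome oxidase subunit 3 stood out from its complex. mt-Co3 made up 3.45% and 3.43% of mitochondrial mRNA in BAT-Mito and 4.75% and 4.39% in BAT-total. Both BAT-Mito libraries lay below both others, with means of 3.44% ± 0.0141 and 4.57% ± 0.257 (SD, n = 2 each) and a ratio of 0.754. Of the complex I mRNAs, mt-Nd3 (ratio 0.747), mt-Nd2 (0.774), mt-Nd6 (0.778) and mt-Nd1 (0.925) were also lower without overlap. mt-Co2 lay the other way, at 4.53% and 4.69% in BAT-Mito and 4.14% and 4.07% in BAT-total, a ratio of 1.12. mt-Co1, with the largest share, did not separate the groups, since its 23.8% and 21.9% in BAT-Mito spanned the 23.7% and 23.3% of BAT-total.

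Both ATP synthase mRNAs had a higher share in BAT-Mito. mt-Atp6 made up 9.51% in both BAT-Mito libraries, and 8.96% and 7.57% in BAT-total, so that the replicates differed more there. mt-Atp8 made up 1.04% and 1.03% in BAT-Mito and 0.896% and 0.906% in BAT-total. The ratios of the means were 1.15 for mt-Atp6 and 1.14 for mt-Atp8. Of the complex I mRNAs, mt-Nd5 (1.21) and mt-Nd4 (1.08) were also higher without overlap, and mt-Nd4l (1.02) overlapped. mt-Cytb took 19.5% and 19.4% in BAT-Mito, within the 18.9% and 19.8% of BAT-total.

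The share of mt-Co3 differed by -1.12 percentage points between the groups, that of mt-Atp6 by 1.24, mt-Co2 by 0.503 and mt-Atp8 by 0.131. The size for mt-Atp6 rests on BAT-total, since it was 1.94 without BAT-total replicate 1 and 0.549 without BAT-total replicate 2. The exact two-sided permutation p was 0.333 for each of these, the smallest possible, and 0.50 after Benjamini-Hochberg adjustment over the 6 members. For mt-Co1 and mt-Cytb it was 1.0. In limma, with all libraries scaled to the total of the 13 mRNAs, the log2 difference was -0.41 (SE 0.31) for mt-Co3 and 0.21 (SE 0.32) for mt-Atp6, and 0 of 6 members were called. Their unadjusted p values lay between 0.266 and 0.977, and on this scale limma called 0.0351% of all genes higher and 97.0% lower. Counting error was far smaller than these differences in BAT-Mito. For mt-Atp8, the one of the 6 members with the fewest reads (36995 and 33180), the 95% Wilson intervals were 1.03 to 1.05% and 1.01 to 1.04%, which cover counting error only. With nuclear copies added the same 4 members stayed apart in the same direction, with means of 5.18% and 6.91% for mt-Co3 and of 15.5% and 13.3% for mt-Atp6.

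**Figure D4:**
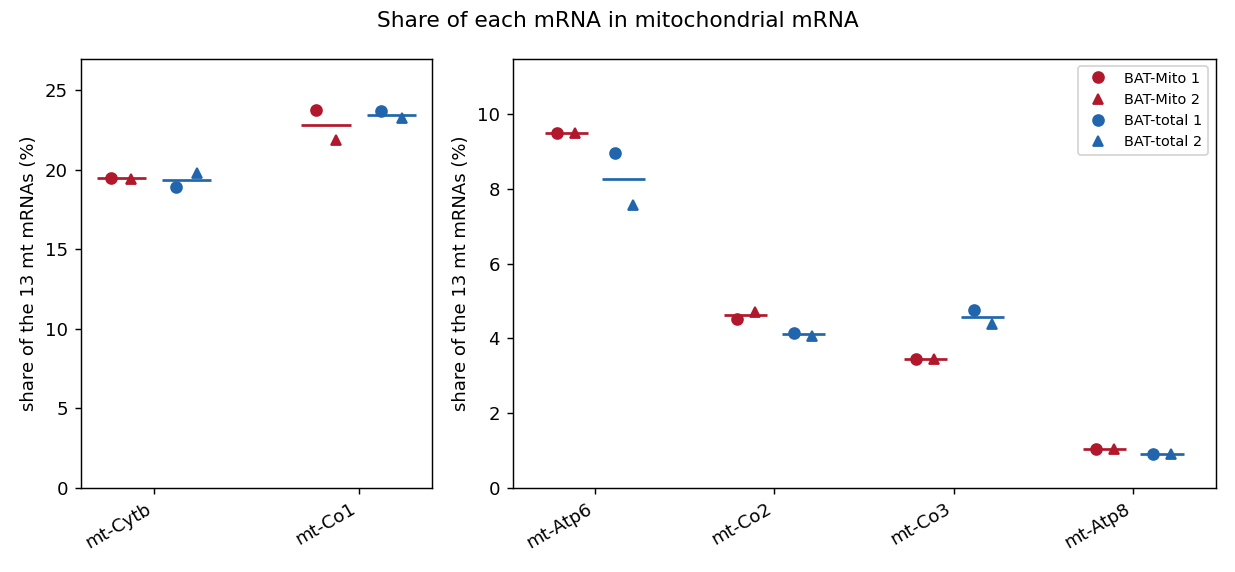
Share of each mRNA in the sum of the 13 mitochondrial mRNAs (vertical axes, %, from 0, with different ranges in the 2 panels) in 4 libraries. Red marks BAT-Mito and blue BAT-total, circles replicate 1 and triangles replicate 2, and lines the group means. The groups are apart for mt-Atp6, mt-Co2, mt-Co3 and mt-Atp8 and overlap for mt-Cytb and mt-Co1.

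By complex, complex V mRNA took 10.5% of mitochondrial mRNA in both BAT-Mito libraries, and 9.86% and 8.48% in BAT-total. Complex IV mRNA took 31.8% and 29.98% in BAT-Mito and 32.6% and 31.7% in BAT-total, with overlapping groups. With copies added the groups no longer overlapped, and complex IV mRNA was lower in BAT-Mito, at 36.5% ± 1.20 against 38.0% ± 0.404, as it was per length, at 26.5% ± 0.740 against 27.5% ± 0.213 (SD, n = 2 each). The exact permutation p was 0.333 for complex V and 0.667 for complex IV as deposited, and 0.333 for complex IV in both other ways. Set against all 37 mitochondrial genes, rRNA included, the separation of complex V was lost, at 1.502% and 1.43% in BAT-Mito and 1.48% and 1.22% in BAT-total (exact permutation p = 0.667). On that scale complex III, at 2.71% ± 0.0914 against 2.83% ± 0.00872, and complex IV, at 4.30% ± 0.314 against 4.72% ± 0.227 (SD, n = 2 each), were lower in BAT-Mito without overlap (exact permutation p = 0.333). So was complex I, at 5.44% ± 0.00409 against 5.77% ± 0.0310 (SD, n = 2 each, exact permutation p = 0.333).

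The levels of different genes were compared per length, as normalised count per kb in percent of the sum over the 13 mRNAs. mt-Cytb was highest in both groups, at 17.4% ± 0.0228 in BAT-Mito and 17.2% ± 0.804 in BAT-total (SD, n = 2 each), ahead of mt-Co1 at 15.1% ± 0.897 and 15.5% ± 0.0231. The ranges of these neighbours did not overlap in either group. mt-Atp6 followed at 14.3% ± 0.00690 in BAT-Mito, apart from mt-Co1 and from mt-Nd1 of complex I at 12.3% ± 0.171. In BAT-total mt-Atp6 stood at 12.4% ± 1.296 and its range overlapped that of mt-Nd1 at 13.3% ± 0.629.

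The other members lay lower. mt-Co2 was at 6.89% ± 0.174 in BAT-Mito and 6.12% ± 0.0144 in BAT-total, where it could not be separated from mt-Nd4 and mt-Co3. mt-Atp8 was at 5.17% ± 0.0414 and 4.50% ± 0.100, and in BAT-Mito its range overlapped that of mt-Nd2. mt-Co3 was at 4.49% ± 0.0176 in BAT-Mito and 5.94% ± 0.250 in BAT-total. It was thus the lowest of the 6 in BAT-Mito, whereas mt-Atp8 was the lowest in BAT-total. As deposited and per annotated length, all 6 lay above mt-Nd4l, mt-Nd3 and mt-Nd6.

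This order changed with the treatment of the nuclear copies, whose addition may count the same reads more than once. With copies added, mt-Atp6 was highest in each of the 4 libraries, at 21.7% and 21.7% in BAT-Mito and 19.9% and 17.4% in BAT-total, followed by mt-Co1 and then mt-Cytb at 12.2%, 12.2%, 11.7% and 12.7%. mt-Co2 then stood at 10.6% and 11.0% in BAT-Mito and 9.56% and 9.69% in BAT-total. On this scale mt-Co3 lay below mt-Co2 in every library, whereas as deposited both stood at 6.11% in BAT-total replicate 1. mt-Atp8 was the lowest member in both groups, at 3.63% and 3.20%, and lay below mt-Nd4l at 5.16% and 5.11%. The order also rests on how length is counted. Per start position of a 75-base read that touches no other gene, mt-Cytb was again highest, and mt-Atp8 stood at 10.2% in BAT-Mito and 8.98% in BAT-total, above mt-Co2 and mt-Co3. mt-Co3 was then the lowest member in both groups, and in BAT-Mito its 4.24% could not be separated from the 4.27% of mt-Nd4l.

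**Figure D5:**
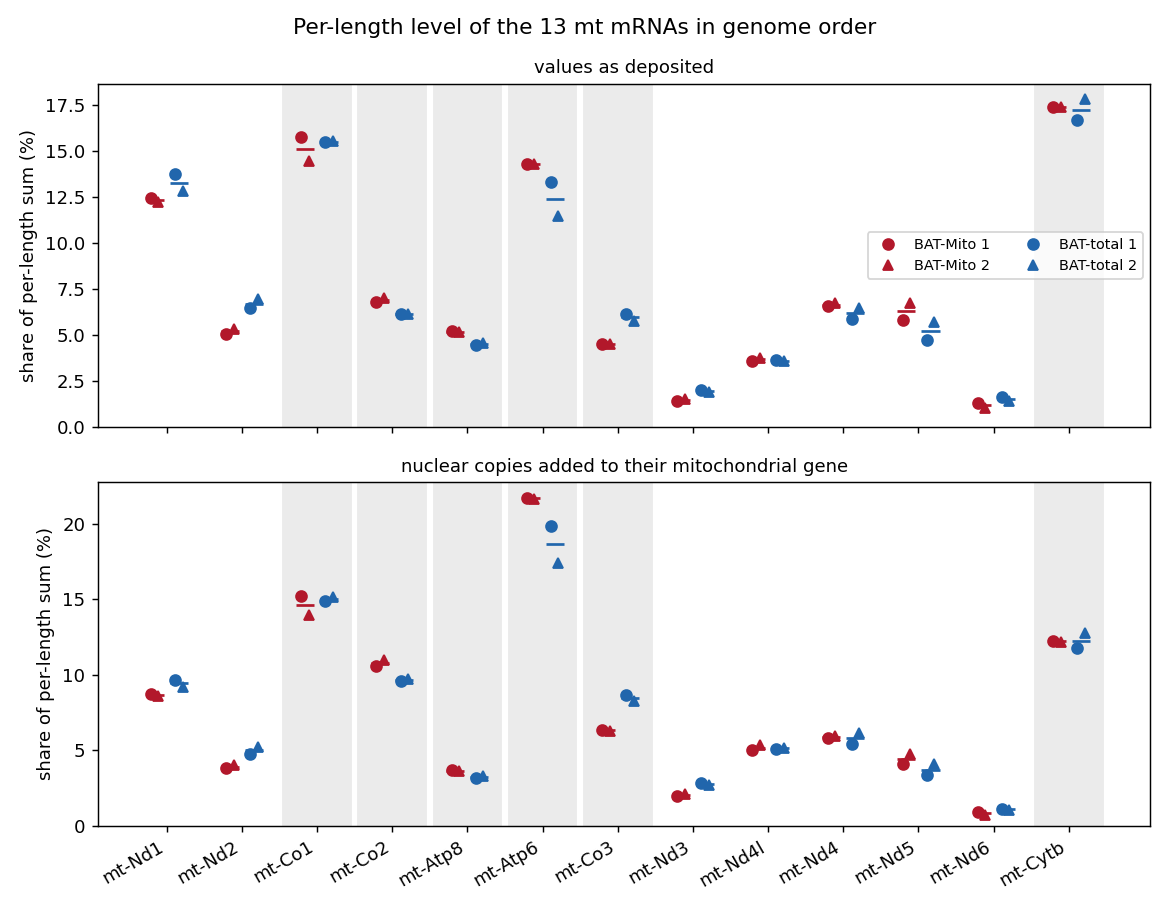
Per-length level of the 13 mitochondrial mRNAs in genome order, as percent of their sum (vertical axes, from 0), with values as deposited (top) and with nuclear copies added (bottom). Members stand on grey, red marks BAT-Mito and blue BAT-total, circles replicate 1 and triangles replicate 2, and lines the group means. mt-Cytb is highest in the top panel and mt-Atp6 in the bottom panel.

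Neighbours that share a transcript could be compared within a library, free of its scaling. mt-Atp6 and mt-Co3 lie next to each other, and the per-length ratio of mt-Atp6 to mt-Co3 was 3.17 and 3.19 in BAT-Mito and 2.17 and 1.99 in BAT-total. Both BAT-Mito libraries exceeded both others, 1.53 times on average, and 1.56 times with copies added. The ratio of mt-Atp8 to mt-Atp6, which are read from 1 mRNA, was 0.364 and 0.360 in BAT-Mito and 0.334 and 0.400 in BAT-total, with overlapping groups. This ratio is far below 1. Just 88 start positions of a 75-base read touch mt-Atp8 and no other gene, against 563 for mt-Atp6, and per such position the ratio was 0.698 and 0.690 in BAT-Mito and 0.639 and 0.766 in BAT-total. With copies added to mt-Atp6 the per-length ratio was 0.168 and 0.166 in BAT-Mito and 0.157 and 0.188 in BAT-total, and the groups overlapped on each scale.

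The ratio of mt-Co2 to mt-Co1 per length was 0.430 and 0.485 in BAT-Mito and 0.395 and 0.396 in BAT-total. BAT-Mito lay above BAT-total, though its 2 libraries differed from each other by more than the nearer of them differed from BAT-total. The ratio of mt-Co3 to mt-Co1 was 0.286 and 0.309 in BAT-Mito, below 0.395 and 0.372 in BAT-total. The ratio of mt-Cytb to mt-Co1, which lie far apart in the genome, was 1.11 and 1.20 in BAT-Mito and 1.08 and 1.15 in BAT-total, and did not separate the groups. For the ratios that did separate the groups the exact two-sided permutation p was 0.333.

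The 7 complex I mRNAs are the nearest comparison, since they come from the same genome. Their log2 fold changes as deposited ran from 7.09 to 7.79 with a median of 7.41, and those of the members from 7.11 to 7.73. Relative to the median complex I mRNA of the same library, 5 of 6 members were higher in both BAT-Mito libraries than in both BAT-total libraries, beside 69.2% of all 13 mRNAs. mt-Atp6 stood at log2 0.89 and 0.81 over that median in BAT-Mito and at 0.44 and 0.11 in BAT-total. mt-Cytb stood at 1.92 and 1.84 against 1.51 and 1.498, and mt-Co1 at 2.21 and 2.01 against 1.84 and 1.73. mt-Co3 was the exception, at -0.57 and -0.66 against -0.48 and -0.67. The exact permutation p was 0.333 for the 5 and 0.400 after adjustment over the 6. In all 4 libraries the median complex I mRNA was mt-Nd2, which itself had one of the smaller fold changes (log2 7.15), so these differences carry its value.

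Among all other tested genes, the profile most like the mean of the members over the 4 libraries was that of mt-Nd4l of complex I, with a Euclidean distance of 0.0646 between centred log2 values. Next came Gm10222, the chromosome 1 copy of mt-Nd4l, at 0.0714, and mt-Nd1 at 0.142. The members themselves lay between 0.0866 for mt-Cytb and 0.431 for mt-Co3.

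The nuclear genome encodes the other subunits of these complexes, and their mRNAs are translated in the cytosol. On the deposited scale limma called none of them in either direction. Of complex III 0 of 9 tested subunit genes were called with limma, of complex IV 0 of 15 and of complex V 0 of 16. At an unadjusted p under 0.05 with limma, 0 genes of complex III, 2 lower and 1 higher of complex IV, and 1 lower of complex V were found. The share of all tested genes at this unadjusted threshold is not given here, so these counts cannot be set against it. With edgeR, but not with limma or DESeq2, Atp5g3, a gene for the c subunit of complex V, was called lower. With DESeq2, but not with limma or edgeR, Cox6a2 was called higher. The median log2 fold changes of the nuclear subunit genes of complexes III, IV and V were -0.79, -1.06 and -0.97, beside -1.23 over all genes. Scaled to library totals, limma called 9 of 9, 14 of 14 and 17 of 17 tested genes lower, with medians of -7.50, -7.83 and -7.45 beside -6.51 over all genes, of which 97.9% were lower.

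The nuclear genes with the highest means differed widely between the BAT-Mito libraries. Uqcrc1, a core protein of complex III, stood at 291 and 987 in BAT-Mito, from 35 and 143 reads, and at 869 and 805 in BAT-total. Uqcrc2, the other core protein, stood at 117 and 373 against 519 and 469, and Uqcrfs1, the Rieske iron-sulfur protein of complex III, at 183 and 297 against 514 and 453. Replicate 2 was the higher BAT-Mito library for all 3, unlike for the mitochondrial members. Cox4i1, a subunit of complex IV, stood at 133 and 235 against 626 and 486, and its log2 fold change of -1.64 had an adjusted p of 0.271 with limma. Cox6c stood at 133 and 428 against 586 and 552, and Cox5b at 258 and 400 against 494 and 462. For these subunits both BAT-Mito libraries lay below BAT-total. Atp5a1, the alpha subunit of complex V, stood at 649 and 2353 against 2651 and 2227, and Atp5b, the beta subunit, at 824 and 1877 against 2683 and 2270. Atp5h, a subunit of the stalk, stood at 133 and 476 against 450 and 387, so that the groups overlapped for it as for Uqcrc1 and Atp5a1. Cox6a2, the heart and muscle form of a complex IV subunit, was picked out after its values had been seen. It stood at 25 and 41, from 3 and 6 reads, against 0 and 1, and its adjusted p with limma was 0.0629. It passed the filter on low values through BAT-Mito alone, so that a call higher, with DESeq2 too, was the sole one possible. The summed markers of skeletal muscle and heart were also higher in both BAT-Mito libraries, and their part in this value was not tested.

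Set against the nuclear subunits of the same complex, the mitochondrial mRNAs dominated BAT-Mito. The ratio of summed normalised counts, not taken per length, was 4425 and 1370 for complex III (mt-Cytb over 9 nuclear genes) in BAT-Mito and 6.16 and 9.44 in BAT-total. For complex IV (3 members over 16 nuclear genes) it was 6986 and 2331 against 9.56 and 13.9. For complex V (mt-Atp6 and mt-Atp8 over 17 nuclear genes) it was 1275 and 379 against 1.52 and 2.05, the smallest of the 3 in every library.

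Assembly factors and factors of mitochondrial RNA metabolism were read out in the same way. Of 21 tested assembly factors of complexes III to V, 3 were called lower and 0 higher, beside 4.41% and 0.803% of all genes. The 3 were Surf1, Cox20 and Coa7, which act in building complex IV. They passed the filter on low values through BAT-total alone, so that no other direction was possible for them. They had 0 reads in both BAT-Mito libraries and 27 and 29, 21 and 19, and 23 and 17 normalised counts in BAT-total. A floor of 3 reads per library equals 22.8 units on average, so that Surf1 was at least 1.23-fold lower and no fold can be given for the others. The 3 calls ended without either BAT-total library, leaving 0 over all 5 nuclear lists, while these lists held 28 calls without BAT-Mito replicate 1 and 57 without BAT-Mito replicate 2. Each of these fits takes its spread from the group that kept both libraries. With edgeR Uqcc1, an assembly factor of complex III, was called lower, at 0 and 14 against 107 and 105, and with DESeq2 0 were called. Uqcc1 too passed the filter through BAT-total alone. Coa5 stood at 25 and 242 against 151 and 159, and Atpaf2, which helps to build the F1 part of complex V, at 33 and 55 against 137 and 110. Of 20 tested factors of mitochondrial RNA synthesis, processing and translation, 0 were called with limma, edgeR or DESeq2. With limma 1 was lower at an unadjusted p under 0.05, a count that again has no share of all genes beside it. Lrpprc, which stabilises mitochondrial mRNAs, stood at 33 and 145 in BAT-Mito, from 4 and 21 reads, and at 253 and 201 in BAT-total. Grsf1, an RNA-binding protein of mitochondrial RNA granules, stood at 58 and 117 against 139 and 148, and Oxa1l, which inserts mitochondrial proteins into the inner membrane, at 17 and 62 against 79 and 55. Replicate 2 was again the higher BAT-Mito library for all 3, and for Oxa1l the groups overlapped.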

How the data were processed

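RNA of WT mouse BAT was sequenced in 4 libraries, 2 of BAT-Mito and 2 of BAT-total, grouped by title. Per the methods, RNA was made into libraries with a stranded low-input kit, the fragmentation time was adjusted for mitochondrial samples, and 75-base single reads were aligned to GRCm38 and counted per gene. The submitters' processing notes name Trimmomatic 0.39, STAR 2.7.10a, featureCounts 2.0.2 and DESeq2 1.30.1, which differ in part from the versions in the methods. Whether counting used strand is not given in the sources used here. The authors deposited 1 table of a normalised signal, gene counts divided by a size factor per library and rounded. In BAT-Mito 100.0% of its values were whole multiples of 1 read, to within 1 unit.

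Genes with a mean of at least 10 were tested (8215) on the log2 scale after adding 1, using limma 3.58.1 (R 4.3.3, no trend) with Benjamini-Hochberg adjustment and a threshold of 0.05. Shares were compared by exact two-sided permutation tests in scipy 1.17.1, which with 2 libraries against 2 cannot go below 0.333. Sequence came from the GENCODE M21 transcripts. As no genome was used, copies outside annotated transcripts were not counted. Named genes were the members, the complex I mRNAs of the mitochondrial genome, and nuclear genes that share a window with a member. Further ones were, in each nuclear list, the genes called and the 3 with the highest mean, and the 3 most similar profiles. Of 18 complex V symbols asked for, 17 were listed. edgeR 4.0.16 and DESeq2 1.42.0 were run on reads of BAT-Mito and deposited values of BAT-total taken as reads. The members and lists were chosen with earlier results of these data known. The fits were tested on simulated data.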

Additional observations from a re-analysis of the deposited data

How the results depend on the processing

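Adding the nuclear copies and counting start positions that touch no other gene were chosen after seeing the data. All 6 members were called higher as deposited, with either other pseudocount, filter, nuclear scaling or the trend option, with edgeR and DESeq2, and with copies added. They numbered 3 when scaled to library totals, 0 when scaled to mitochondrial mRNA totals, and 0 to 6 when 1 library was left out. With the replicate number as a block 0 were called (adjusted p 0.158 with limma). The numbers share no stated origin, and deviations of equal numbers had a correlation of 0.112 over 8215 genes.

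On the mitochondrial mRNA scale mt-Co1 (-0.0415) and mt-Co3 (-0.41) turned below 0. The joint share in mitochondrial mRNA, 0.229 percentage points higher in BAT-Mito, was 1.64 per length, 1.93 per start position touching no other gene, -0.409 per unique start position, -0.420 with all 37 genes as denominator, 0.472 and -0.0150 in the 2 pairs of the block, and between -0.685 and 1.14 when 1 library was left out. Unique start positions number 1 for mt-Co3 and 2 for mt-Atp6, and assume that shared reads were left out, which the values of the copies do not bear out. The difference in the share of mt-Co1 ranged from -1.61 to 0.315 (the latter without BAT-Mito replicate 2) when 1 library was left out and was 0.0031 per unique start position. That of mt-Cytb ranged from -0.322 (without BAT-total replicate 1) to 0.567 and was -0.0117 with copies added. The share of the library differed by 35.5 points without rRNA and 4.80 with copies, against 3.19, and by 2.89 to 3.48 when 1 library was left out.

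Called genes of the nuclear lists numbered 3 as deposited. They numbered 0 with a pseudocount of 10, a mean of at least 50 or the replicate block, 10 without a filter, 89 when scaled to library totals or to mitochondrial mRNA totals, and 1 with nuclear totals, median ratios or DESeq2. They ranged from 0 to 57 when 1 library was left out. Fold changes of low nuclear genes were limited by depth, since the step of 1 read was 6.90 to 8.32 units in BAT-Mito. The cause of these changes was not tested.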

Other observations

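Primer pairs for ATP6 and COXI listed by the study were matched to the transcripts. Both ATP6 primers matched mt-Atp6, at chrM:7968-7991 on the plus strand and chrM:8100-8124 on the minus strand, and both also matched Gm10925 on chromosome 1. The COXI primers matched mt-Co1 at chrM:6226-6250 and chrM:6292-6316, both in the direction of the gene as listed, and both also occurred in the pseudogene Gm11512. The primer at chrM:6292-6316 occurred in Gm13340 as well. The sequences are given because the copies share them.
ATP6, plus strand: aataggattcccaatcgttgtagc
ATP6, minus strand: tcgtccttttggtgtgtggattagc

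Cox6a1, the widely expressed form of the subunit whose heart and muscle form is Cox6a2, stood at 58 and 138 normalised counts in BAT-Mito, from 7 and 20 reads, and at 321 and 257 in BAT-total. It was picked out after its values had been seen, and its adjusted p with limma was 0.296.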
